A study of Mus musculus with 15 samples.

Results

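Lymphocyte trafficking receptors were followed in whole blood by 7 genes, set as a list of names with no threshold on their values: the chemokine receptors Cxcr3, Cxcr5, Cxcr6, Ccr4 and Ccr6 and the sphingosine-1-phosphate (S1P) receptors S1pr4 and S1pr5. They are 7 of the 55416 gene identifiers counted, and each identifier was matched to its symbol in the GENCODE M39 annotation. Blood of 15 C57BL/6 mice was sequenced, with 1 library per mouse and 5 mice in each of 3 groups. By the labels all 3 groups carried tongue tumors grown for 10 days from transplanted cells of the 4MOSC1 line, which derives from a mouse oral squamous cell carcinoma. Mice were female and a few weeks of age at transplantation, according to the study's methods. The untreated group had no surgery and no αCTLA-4, the checkpoint antibody, and served as the background for the other groups. The early ND and late ND groups both had 2 doses of αCTLA-4 and a neck dissection (ND, surgical removal of the cervical lymph nodes), and differ in when that surgery was scheduled. The study's sources disagree on whether the late ND mice had been operated on before they were bled, so "late ND" names the group only. No group had αCTLA-4 without a scheduled dissection, or a dissection without αCTLA-4, so the antibody and the surgery cannot be told apart in comparisons with untreated mice.

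All 7 genes encode G protein-coupled receptors. Chemokine receptors steer lymphocytes along gradients of small secreted proteins, while S1P, a lipid abundant in blood plasma, draws lymphocytes out of tissues into the circulation. Cxcr3, Cxcr6 and Ccr4 are known mainly from activated and memory T cells, Ccr6 from B cells and T helper 17 cells, Cxcr5 from B cells and follicular helper T cells, S1pr4 from lymphocytes and myeloid cells and S1pr5 from NK cells.

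Between 5862888 and 10796099 counts fell on genes in untreated libraries, between 5527108 and 7182346 in early ND libraries and between 7849602 and 13924361 in late ND libraries. Levels are given as CPM (counts scaled to a common library size) scaled with TMM factors, which set the bulk of genes equal between libraries. The scaling matters here, since the hemoglobin genes took 48.4% ± 12.7 of gene counts in untreated libraries, 48.5% ± 10.4 in early ND libraries and 22.0% ± 6.73 in late ND libraries (SD, n = 5 each). On this scale 1 CPM stood for as few as 2.57 counts in a library and as many as 23.5. The libraries untreated 2, late 2 and late 3 stood apart by 18S ribosomal sequence (313 to 766 CPM of Rn18s-rs5, against at least 13402 in the other 12).

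All 7 receptors were detected in each of the 15 libraries, with raw counts from 7 (Ccr4 in early ND mice 4 and 5) to 1862 (S1pr4 in late ND mouse 2). Per kilobase of annotated exon, S1pr4 had the highest level in every library (mean 25.8 CPM per kb, SD 4.17, n = 15) and Cxcr5 the second highest (12.95 ± 2.72, SD, n = 15). Their ranges overlapped neither each other nor those of the other receptors. Below them came Cxcr6 (4.46 ± 1.63 CPM per kb, SD, n = 15), Ccr6 (4.01 ± 0.977), Cxcr3 (3.48 ± 1.12) and S1pr5 (2.87 ± 0.741), which changed places between mice. Cxcr6 was above Ccr6 in 9 of 15 libraries, Ccr6 above Cxcr3 in 9 and Cxcr3 above S1pr5 in 11. Ccr4 had the lowest level in every library (1.17 ± 0.471 CPM per kb, SD, n = 15), although its range overlapped that of S1pr5.

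**Figure D1:**
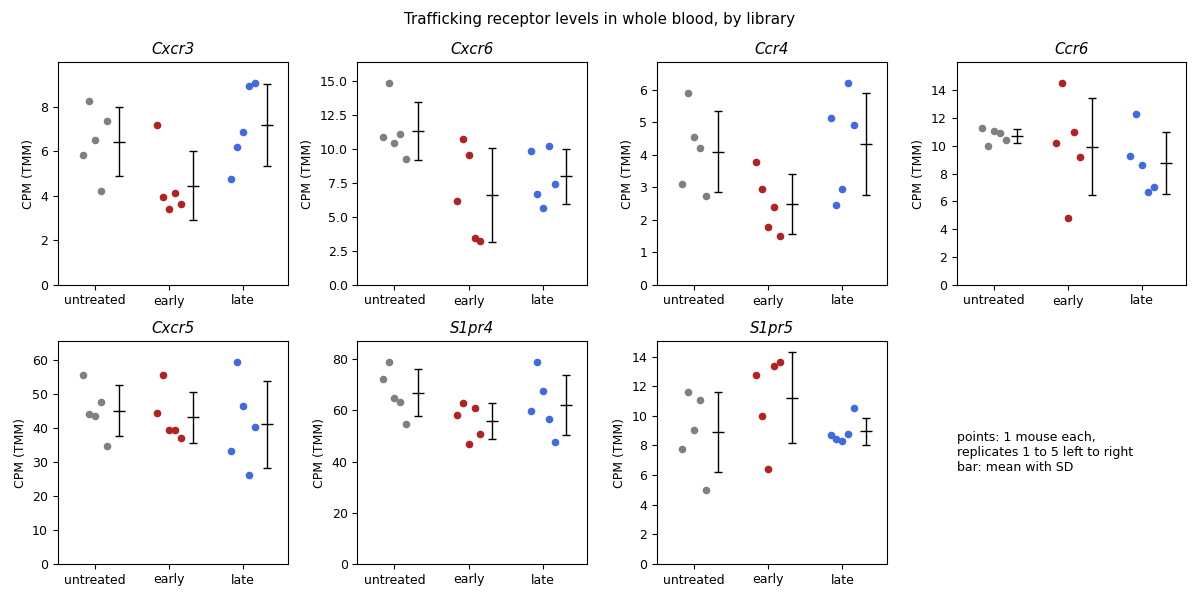
Level of each receptor (CPM with TMM scaling, linear axis from 0) in the 5 untreated, 5 early ND and 5 late ND mice, with 1 point per mouse in the order of replicates 1 to 5 and a bar for the mean with SD. The groups overlap in every panel. As a fold between the highest and lowest mouse of a group, the widest spread is the 3.36-fold of Cxcr6 after early ND, from 3.21 to 10.8 CPM.

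Cxcr3 is the receptor for the interferon-induced chemokines Cxcl9 and Cxcl10 and marks type 1 effector lymphocytes. The gene lies at X:100775141-100777875 on the minus strand (GRCm39). Its level in untreated mice 1 to 5 was 5.83, 8.26, 6.51, 4.20 and 7.36 CPM, in early ND mice 7.19, 3.92, 3.41, 4.12 and 3.63 CPM, and in late ND mice 4.76, 6.20, 6.84, 8.95 and 9.09 CPM. Each late ND mouse lay above 4 of the 5 early ND mice, and the groups overlapped only through early ND mouse 1. The fitted level was 1.55-fold higher after late than after early ND (log2 fold change 0.63, SE 0.25, 95% interval 0.10 to 1.17). With edgeR's quasi-likelihood test the unadjusted p was 0.0236, but the Benjamini-Hochberg adjusted p of 0.141 did not pass the threshold of 0.05. Raw counts were low in the early ND group, at 12 to 57 per library, where counting alone gives a coefficient of variation of about 20.4% at the median count. Against untreated mice the log2 fold change was 0.09 after late ND (95% interval -0.39 to 0.57) and -0.52 after early ND (95% interval -1.09 to 0.05).

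Cxcr6 binds the membrane-anchored chemokine Cxcl16 and is known from tissue-resident T cells and NKT cells. It lies at 9:123635534-123640825 on the plus strand, within the span of Fyco1 on the opposite strand but sharing no exon base with it. Its level was 10.9, 14.9, 10.5, 11.1 and 9.29 CPM in untreated mice 1 to 5, 6.18, 10.8, 9.56, 3.43 and 3.21 CPM in early ND mice, and 9.89, 6.71, 5.66, 10.2 and 7.45 CPM in late ND mice. Every treated mouse lay below the untreated median of 10.9 CPM, and in both comparisons the lowest untreated mice overlapped the highest treated mice. The log2 fold change against untreated mice was -0.57 after late ND (SE 0.19, 95% interval -0.99 to -0.15) and -0.73 after early ND (SE 0.30, 95% interval -1.38 to -0.08). The edgeR quasi-likelihood test gave an unadjusted p of 0.0116 after late ND (Benjamini-Hochberg adjusted p = 0.149) and of 0.0312 after early ND (adjusted p = 0.938), so neither difference passed. Both comparisons share the untreated libraries. Between late and early ND the log2 fold change was 0.18 (95% interval -0.48 to 0.84). The early ND mice split over a 3.36-fold range, with raw counts of only 10 and 15 in mice 4 and 5.

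Ccr4 responds to Ccl17 and Ccl22 and is known from type 2 helper, skin-homing and regulatory T cells. The gene lies at 9:114319384-114333984 on the minus strand. Its level was 3.11, 5.88, 4.53, 4.20 and 2.72 CPM in untreated mice, 3.78, 2.94, 1.78, 2.40 and 1.50 CPM in early ND mice, and 5.13, 2.46, 2.94, 6.22 and 4.90 CPM in late ND mice. Late ND mice 1, 4 and 5 lay above every early ND mouse, whereas late ND mice 2 and 3, the libraries poor in 18S sequence, lay within the early ND range. The fitted level was 1.66-fold higher after late than after early ND (log2 fold change 0.73, SE 0.32, 95% interval 0.03 to 1.43), which did not pass the edgeR quasi-likelihood test after Benjamini-Hochberg adjustment (unadjusted p = 0.0421, adjusted p = 0.191). Early ND mice were lower than untreated mice by 0.72 on the log2 scale (log2 fold change -0.72, 95% interval -1.39 to -0.05), again without passing in edgeR (unadjusted p = 0.0364, adjusted p = 0.938). Late ND and untreated mice differed by -0.02 (95% interval -0.66 to 0.63). Ccr4 was the least counted of the receptors, with 7 to 30 counts in early ND libraries.

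Ccr6 is the receptor for Ccl20. It lies at 17:8454869-8475973 on the plus strand, and 1145 of its 2450 exon bases face the non-coding gene Gm33799 on the opposite strand of the M39 annotation, which was not analysed here. Its level was 11.3, 10.0, 11.04, 10.9 and 10.4 CPM in untreated mice, 10.2, 14.5, 4.78, 10.99 and 9.19 CPM in early ND mice, and 9.25, 12.3, 8.60, 6.66 and 7.06 CPM in late ND mice. The untreated mice lay within 1.13-fold of each other, and both treated groups spread to either side of them. None of the differences passed: the log2 fold change was -0.19 between late and early ND (95% interval -0.75 to 0.36), -0.32 between late ND and untreated mice (95% interval -0.70 to 0.06) and -0.10 between early ND and untreated mice (95% interval -0.62 to 0.41). The adjusted p-values of the edgeR quasi-likelihood test were 0.707, 0.389 and 0.978.

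Cxcr5 guides B cells and follicular helper T cells to the Cxcl13 of lymphoid follicles. The gene lies at 9:44423083-44473174 on the minus strand, with 118 exon bases opposite exons of Bcl9l. Its level was 55.5, 44.0, 43.6, 47.7 and 34.7 CPM in untreated mice, 44.5, 55.7, 39.5, 39.5 and 37.0 CPM in early ND mice, and 33.3, 59.6, 46.5, 26.1 and 40.3 CPM in late ND mice. The late ND mice held both the highest and the lowest of the 15 values. With 115 to 1403 counts per library Cxcr5 was counted more deeply than the receptors above. The log2 fold changes were -0.10 between late and early ND (95% interval -0.53 to 0.33), -0.17 between late ND and untreated mice (95% interval -0.61 to 0.27) and -0.05 between early ND and untreated mice (95% interval -0.37 to 0.28). None passed the edgeR quasi-likelihood test (adjusted p = 0.813, 0.758 and 0.988).

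S1pr4 lies at 10:81333581-81335966 on the minus strand as a single exon. Its level was 72.2, 78.9, 64.8, 63.3 and 54.7 CPM in untreated mice, 58.3, 63.1, 46.7, 61.1 and 50.6 CPM in early ND mice, and 59.6, 79.1, 67.4, 56.5 and 47.8 CPM in late ND mice. The groups overlapped widely, and no early ND mouse exceeded the untreated median of 64.8 CPM. The log2 fold changes were 0.12 between late and early ND (95% interval -0.19 to 0.44), -0.15 between late ND and untreated mice (95% interval -0.47 to 0.18) and -0.25 between early ND and untreated mice (95% interval -0.53 to 0.04). Adjusted p-values in edgeR's quasi-likelihood test were 0.663, 0.694 and 0.938.

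S1pr5, which NK cells need to leave bone marrow and lymph nodes, lies at 9:21154208-21159746 on the minus strand, with 58 exon bases opposite Gm48303. Its level was 7.77, 11.6, 9.06, 11.1 and 4.96 CPM in untreated mice, 12.7, 9.97, 6.42, 13.4 and 13.7 CPM in early ND mice, and 8.70, 8.41, 8.29, 8.81 and 10.5 CPM in late ND mice. Early ND mice 1, 4 and 5 lay above every mouse of the other groups, while early ND mouse 3 lay below every late ND mouse. The log2 fold change was -0.34 between late and early ND (SE 0.19, 95% interval -0.76 to 0.07), -0.06 between late ND and untreated mice (95% interval -0.49 to 0.38) and 0.31 between early ND and untreated mice (95% interval -0.25 to 0.88). The edgeR quasi-likelihood test passed none of these (adjusted p = 0.299, 0.935 and 0.94). The first depends on a single library: without early ND mouse 3 the log2 fold change was -0.50 and passed (adjusted p = 0.043, edgeR). In that fit 1610 of 13676 genes passed, against 663 of 13315 with all libraries.

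**Figure D2:**
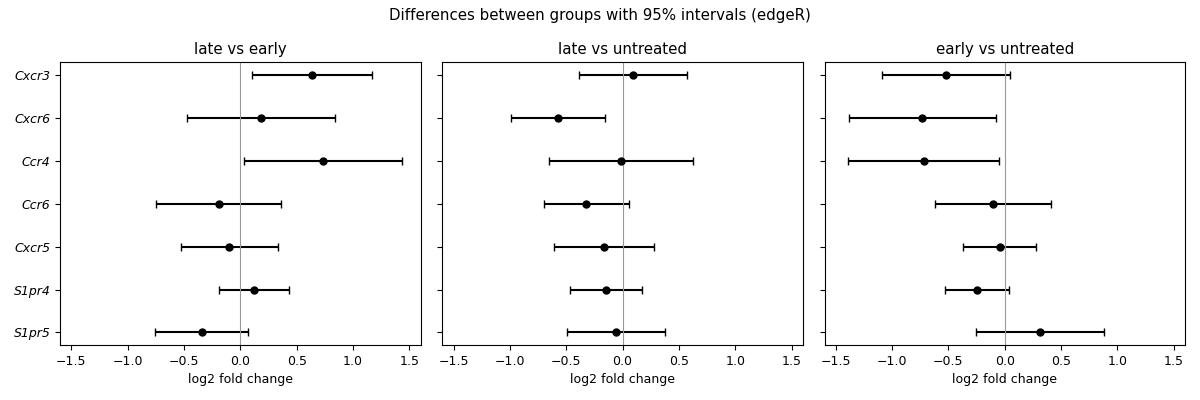
Log2 fold change of each receptor (points) with its 95% interval (bars) from edgeR's quasi-likelihood fit, for late against early ND, late ND against untreated and early ND against untreated mice. The intervals that leave out 0 are those of Cxcr3 and Ccr4 in the first panel, Cxcr6 in the second, and Cxcr6 and Ccr4 in the third, and none of the 21 passed after adjustment over all genes tested.

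Across the 3 comparisons, 0 of the 7 receptors passed the edgeR quasi-likelihood test at an adjusted p under 0.05, and 0 passed with DESeq2. All 7 receptors passed the filter on low counts in each comparison. Over all genes, 4.98% of 13315 passed between late and early ND, 3% of 13547 between late ND and untreated mice and 0% of 12151 between early ND and untreated mice. At an unadjusted p under 0.05 the count was 2 receptors, both higher, between late and early ND, where 23.8% of all genes reached it and 14.4% did so upward. It was 1 receptor, lower, between late ND and untreated mice, against 17% of all genes and 8.28% downward. Between early ND and untreated mice it was 2 receptors, both lower, against 4.44% of all genes and 2.33% downward. For none of the 7 did the groups fail to overlap in any comparison, a separation seen for 7.04%, 5.84% and 0.543% of all genes in the same order.

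With TMM scaling, the intervals set how large a change the data leave room for. They do not cover the choice of scaling. Between late ND and untreated mice the 95% intervals of all 7 receptors lay within a fold of 0.5 to 2. Between late and early ND this held for 5 receptors, and the intervals of Cxcr3 and Ccr4 reached 2.25-fold and 2.7-fold. Between early ND and untreated mice it held for 4 receptors, and the intervals of Cxcr3, Cxcr6 and Ccr4 reached down to 0.471-fold, 0.383-fold and 0.382-fold. The median log2 fold change of the 7 receptors was 0.12, -0.15 and -0.25 in the 3 comparisons, beside 0.014, 0.0023 and -0.0022 over all genes, of which 51.8%, 50.4% and 49.6% were above 0. With TMM scaling 4 receptors were higher and 3 lower between late and early ND, and 1 was higher and 6 lower between late ND and untreated mice, but scaling by library totals made all 7 higher in both. That scaling also moved the median of all genes to 0.86 and 0.91 on the log2 scale, and relative to those medians the receptors again lay 4 above to 3 below and 1 above to 6 below.

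In bulk blood, fewer cells of a type and less RNA per cell cannot be told apart, so the receptors were also set against the summed CPM of T, B and NK cell markers of the same library. All 11 T cell, 9 B cell and 8 NK cell markers were counted in every library. The T cell sum was 435 ± 59.0 CPM in untreated, 392 ± 74.3 in early ND and 325 ± 26.0 in late ND mice (SD, n = 5 each). The NK cell sum was 108 ± 34.5, 113 ± 32.3 and 96.1 ± 11.5 CPM (SD, n = 5 each), and the B cell sum was 930 ± 173, 1077 ± 262 and 859 ± 367 CPM. Gzma alone had means of 47.0, 49.1 and 42.0 CPM in the same order, so the NK cell sum rests more on it than on any other marker. Among the T cell markers, Cd3g, a chain of the T cell receptor complex, and Themis, a thymocyte signaling protein, were lower in late ND than in untreated mice (log2 fold changes -0.63 and -0.69, adjusted p = 0.0274 and 0.025, edgeR), although scaling by library totals turned them to 0.28 and 0.20. These were 2 of 11 markers with edgeR, against 6 with DESeq2, and all 11 were lower at an unadjusted p under 0.05 (8.28% of all genes were). Without the libraries poor in 18S sequence Cd3g and Themis had log2 fold changes of -0.66 and -0.62 but did not pass (adjusted p = 0.128 and 0.138, edgeR), and they passed in 1 and 2 of 10 fits that left out 1 library. No T cell marker passed between late and early ND with edgeR (4 at an unadjusted p under 0.05, beside 23.8% of all genes), and 1, Cd247, passed with DESeq2. There Themis and Cd28, the costimulatory receptor, were at -0.44 and -0.43 (adjusted p = 0.0978 and 0.119, edgeR). No B or NK cell marker passed in any comparison with edgeR. At an unadjusted p under 0.05 there were 1 B cell and 2 NK cell markers between late and early ND, and DESeq2 called 1 B cell marker there, Cr2, and no NK cell marker. The members of those lists with the largest differences between late and early ND were Cr2 (-0.68) and Fcrla (-0.50) for B cells and Ncr1 (-0.51) and Klri2 (-0.50) for NK cells.

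Relative to T cell markers, Cxcr3 stood at a log2 ratio of -6.11 ± 0.35 in untreated mice, -6.49 ± 0.40 in early ND mice and -5.54 ± 0.47 in late ND mice (SD, n = 5 each). In 4 of 5 late ND mice it was above every early ND mouse. Relative to NK cell markers its values were -4.42, -5.05, -4.31, -4.83 and -4.77 in early ND mice and -4.27, -4.11, -3.99, -3.30 and -3.20 in late ND mice, and the groups did not overlap. Only 0.931% of all genes tested were separated in this ratio, and 1 of the 7 receptors was. The margin was narrow, between early ND mouse 3 and late ND mouse 1. The difference in the mean log2 ratio of Cxcr3 to T cell markers between late and early ND was 0.96, of which part lies in the lower T cell sum of the late ND mice. No test was run on these ratios.

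Ccr4 had log2 ratios to T cell markers of -6.78 ± 0.30 in untreated, -7.36 ± 0.39 in early ND and -6.31 ± 0.62 in late ND mice (SD, n = 5 each), with 4 of 5 late ND mice above every early ND mouse. Relative to NK cell markers, all 5 early ND mice (-6.05 to -5.25) lay below all 5 untreated mice (-5.09 to -4.21). A separation in either direction was seen for 0.0741% of all genes tested and for 1 of the 7 receptors. The margin was narrow, between early ND mouse 3 with 13 counts of Ccr4 and untreated mouse 3 with 16. Cxcr6 to T cell markers was tightly held in untreated mice, at -5.27 ± 0.10, and scattered after early ND, at -6.04 ± 0.90, with -5.38 ± 0.36 after late ND. S1pr4 to T cell markers was -2.70 ± 0.07, -2.79 ± 0.11 and -2.40 ± 0.22 in the same order (SD, n = 5 each), and 4 of 5 late ND mice exceeded every mouse of the other groups. The ratio to T cell markers separated late ND from untreated mice for 21.3% of all genes tested and late from early ND for 4.74%, but for 0 of the 7 receptors in either. Ratios of all 7 receptors to T, B and NK cell markers were looked at in 3 comparisons. Among these, the separations of Cxcr3 and Ccr4 relative to NK cell markers, each in 1 comparison, were the only ones.

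The remaining receptors kept overlapping ratios to the cells in which they are best known. Cxcr5 to B cell markers was -4.36 ± 0.25 in untreated mice, -4.62 ± 0.14 after early ND and -4.33 ± 0.27 after late ND (log2, SD, n = 5 each). Ccr6 to B cell markers was -6.42 ± 0.27, -6.81 ± 0.40 and -6.54 ± 0.32. S1pr5 to NK cell markers was -3.60 ± 0.36, -3.34 ± 0.35 and -3.42 ± 0.29, and the groups overlapped.

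**Figure D3:**
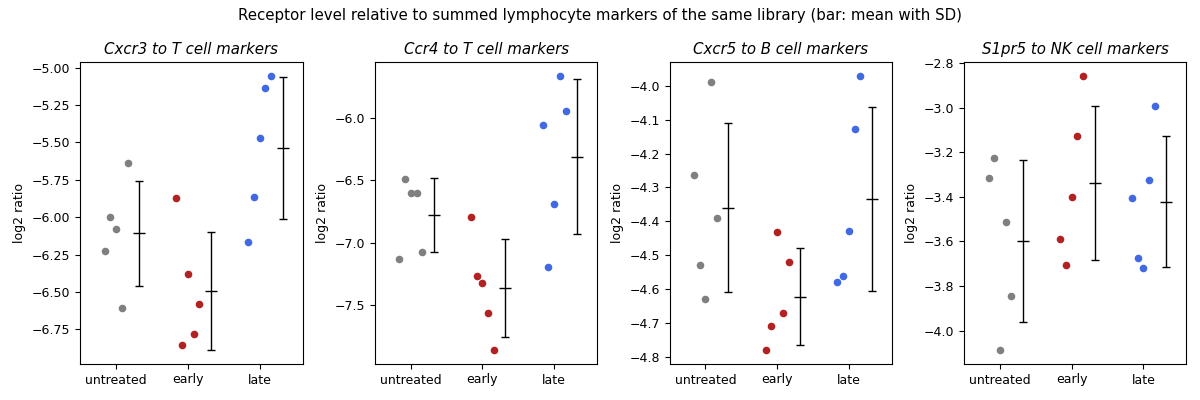
Log2 ratio of Cxcr3 and Ccr4 to the summed CPM of 11 T cell markers, of Cxcr5 to 9 B cell markers and of S1pr5 to 8 NK cell markers, with 1 point per mouse and a bar for the mean with SD (vertical axes do not start at 0). For Cxcr3 and Ccr4, 4 of the 5 late ND mice lie above every early ND mouse, for Cxcr5 3 and for S1pr5 0. The ranges of the groups overlap in every panel.

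How the receptors varied between mice of the same group was described with the deviation of log2 CPM from the group mean, correlated over the 15 libraries. These points share library depth, scaling and blood composition, and the coefficients are descriptions without a test. Cxcr5 followed the B cell markers most closely (Pearson r = 0.86). S1pr4 followed both B and T cell markers (r = 0.79 and 0.75), as did Ccr6 (r = 0.71 and 0.73). S1pr5 followed T and NK cell markers (r = 0.64 and 0.61) and also platelet markers (r = 0.72). Ccr4 was related to T cell markers at r = 0.51, whereas Cxcr3 and Cxcr6 were near 0 with them (r = 0.16 and 0.065). Negative coefficients of like size were those of S1pr4 and S1pr5 with skin and squamous markers (r = -0.69 and -0.68), Ccr6 with neutrophil markers (r = -0.64), Cxcr6 with monocyte markers (r = -0.58) and Cxcr3 with erythroid markers (r = -0.51). In the skin and squamous list only Scd3 and Elovl3 were well counted. Krt1, Krt5, Krt10, Krt14 and Trp63 had group means of at most 0.801 CPM. Among the receptors themselves, Ccr6 and S1pr4 (r = 0.68), Cxcr5 and S1pr4 (r = 0.64) and Cxcr5 and Ccr6 (r = 0.56) had the highest coefficients, and Cxcr6 and Ccr4 reached 0.50.

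**Figure D4:**
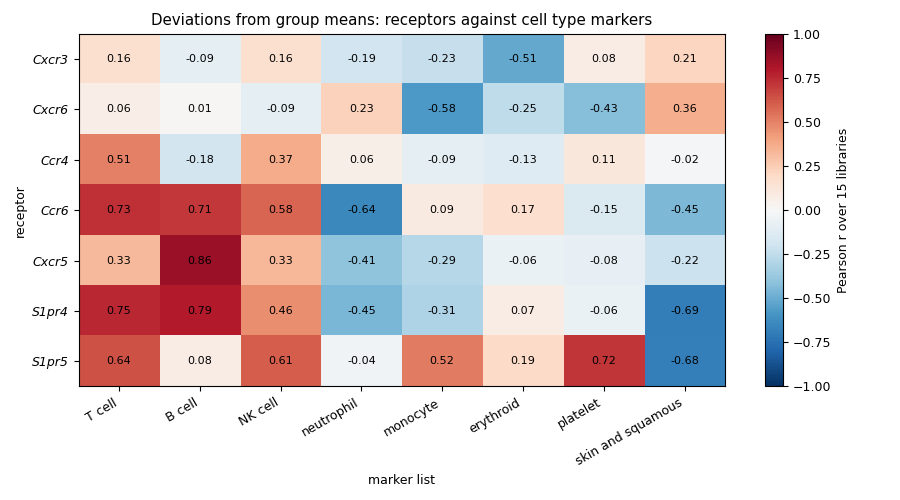
Pearson r between the deviations from the group mean of each receptor (vertical axis) and of 8 cell type marker lists (horizontal axis) over 15 libraries, with red for positive and blue for negative values. The lymphocyte columns are positive for Ccr6, Cxcr5, S1pr4 and S1pr5, highest for Cxcr5 with B cell markers at 0.86, and near 0 for Cxcr6.

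Among about 9027 well counted genes, the 5 most like Cxcr5 were the B cell transcription factor gene Tcf3 (r = 0.94), Unc13a, the antigen presentation gene H2-DMb2, 9430015G10Rik and the B cell kinase gene Blk (r = 0.91), which is itself among the B cell markers. Among those most like S1pr4 were Smim29 (r = 0.94), the lymphocyte GTPase gene Gimap9, Slc28a2b and Rpsa (r = 0.91). Those most like Ccr6 were Ltv1 (r = 0.94), Ankzf1, Ephx1, Atr and Surf2 (r = 0.87). The other receptors had lower maxima. The highest of about 9027 coefficients over 15 libraries can be large with no relation between the genes. No chance level was worked out for any of these values. Cxcr3 was most like Zhx2 (r = 0.85), Csnk1d, ENSMUSG00000097313.3, Tob2 and Fam199x. Among the genes most like Cxcr6 were Prr14l (r = 0.85), Il18r1, Cramp1 and Sdha. Ccr4 was most like Tnrc6b (r = 0.85), Pfkp, Baz1b, Zfp709 and Il18r1. Il18r1, the receptor of the interleukin 18 cytokine, was thus named for both Cxcr6 (r = 0.84) and Ccr4 (r = 0.76). S1pr5 was most like Serpinb9, a granzyme B inhibitor gene (r = 0.85), the T cell kinase gene Fyn, Igtp, Gm26631 and the platelet chemokine gene Ppbp (r = 0.82).

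Of the 7 ligand genes of these receptors, most were close to absent from blood RNA. Cxcl10 passed the filter only between late and early ND, with 4 to 14 counts per early ND library and 9 to 14 per late ND library. That is a mean of 1.78 ± 0.509 CPM after early and 0.776 ± 0.316 after late ND (SD, n = 5), a log2 fold change of -1.27 that did not pass with edgeR (adjusted p = 0.0503) and passed with DESeq2. Untreated libraries held 0 to 6 counts of it. Cxcl16 had 1 to 31 counts per library and did not pass between late and early ND (log2 fold change -0.46, adjusted p = 0.537, edgeR) or between late ND and untreated mice (-0.25, adjusted p = 0.844, edgeR). Cxcl9, Cxcl13, Ccl17, Ccl22 and Ccl20 failed the filter in every comparison. Cxcl9 did not exceed 4 counts in a library, Cxcl13 11, Ccl17 8 and Ccl22 26, and Ccl20 was at 0 in all untreated and early ND libraries and at no more than 5 after late ND. By group, Ccl22 had 0 to 3 counts in untreated, 2 to 26 in early ND and 0 to 5 in late ND libraries. Its level was 0.342 ± 0.482, 1.52 ± 1.14 and 0.113 ± 0.135 CPM in the same order (SD, n = 5 each), a difference that was not tested.

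Of 20 other trafficking receptors and adhesion molecules, 17 were tested and 1 passed with edgeR. Ccr2, which brings inflammatory monocytes out of the bone marrow, rose from 180 ± 39.5 CPM in untreated mice to 402 ± 78.3 after late ND (SD, n = 5, log2 fold change 1.11, adjusted p = 0.0242, edgeR). It did not pass without the libraries poor in 18S sequence (1.13, adjusted p = 0.107, edgeR) and passed in 5 of 10 fits that left out 1 library. Against early ND its log2 fold change was 1.04 (adjusted p = 0.0565, edgeR). Ccr2 is also a monocyte marker. The summed monocyte markers, Ccr2 among them, were at 2252 ± 354 CPM in untreated, 2320 ± 1015 in early ND and 3913 ± 513 in late ND mice. Lyz2 alone had means of 1780, 1808 and 2960 CPM in the same order, so the sum rests largely on it. The part of monocytes in the result was not tested. Between late ND and untreated mice 8 of the 17 reached an unadjusted p under 0.05 with edgeR, as did 17% of all genes. DESeq2 called Cxcr4 and Cd69 beside Ccr2, and 808 of all 13547 genes. Between late and early ND, 0 of the 17 passed with edgeR (7 at an unadjusted p under 0.05, beside 23.8% of all genes). DESeq2 called 3 there, among them Ccr2 and S1pr2, and 1439 of all 13315 genes. The median log2 fold change of the 17 was 0.13 between late and early ND and 0.17 between late ND and untreated mice. Ccr8, Ccr10 and S1pr3 were too low to test.

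Of 8 genes that make, export or break down S1P, 7 were tested and 0 passed with edgeR or DESeq2. Between late and early ND 2 reached an unadjusted p under 0.05 in edgeR, 1 in each direction, beside 23.8% of all genes. The largest differences between late and early ND were those of Plpp3, a lipid phosphatase (log2 fold change -0.62, adjusted p = 0.336, edgeR), and Mfsd2b, the S1P exporter of red cells and platelets (-0.49, adjusted p = 0.132, edgeR). Of 18 signaling genes downstream of these receptors, 0 passed with edgeR in any comparison. Between late and early ND 9 were higher at an unadjusted p under 0.05 (14.4% of all genes were), and DESeq2 called 4, namely Grk2, Rgs14, Rac2 and Coro1a. Rgs1, which dampens chemokine receptor signals, and Rac2, a GTPase of leukocyte migration, had the largest differences (-0.60 and 0.60, adjusted p = 0.421 and 0.0548, edgeR). Of 14 lineage transcription factor genes, 0 passed with edgeR. Between late and early ND 3 were higher at an unadjusted p under 0.05 (14.4% of all genes were), and DESeq2 called Bcl6 alone. The largest differences were those of Bcl6, the regulator of follicular helper T and germinal center B cells that neutrophils also express (0.84, adjusted p = 0.0522, edgeR), and Maf (0.54, adjusted p = 0.0842, edgeR).

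Markers of some other blood cells passed the test. Between late and early ND, 5 of 8 erythroid markers fell with edgeR and 8 with DESeq2, with Epb42, a membrane protein of red cells, at a log2 fold change of -2.89 (adjusted p = 0.0178, edgeR). The monocyte markers Fn1 and Csf1r rose (1.64 and 0.75, adjusted p = 0.0126 and 0.0425, edgeR), 2 of 8. Ace, another monocyte marker, went the other way without passing (-0.43, adjusted p = 0.535, edgeR). Fn1 passed in 10 of 10 fits that left out 1 library and Csf1r in 3, with an adjusted p of 0.0555 for Csf1r under DESeq2 size factors in edgeR, and the erythroid marker Hbb-bt passed in 2. None of the 5 erythroid and 2 monocyte markers that passed did so without the libraries poor in 18S sequence (adjusted p from 0.0509 to 0.111, edgeR). With edgeR 0 of 9 neutrophil markers passed, and 6 did with DESeq2. At an unadjusted p under 0.05 in edgeR 7 were higher, beside 14.4% of all genes. Retnlg was at 1.42 and Ly6g at 1.24 (adjusted p = 0.0535 and 0.196, edgeR). Camp and Ltf went the other way, at -0.42 and -0.066 (adjusted p = 0.672 and 0.965, edgeR). Of 5 platelet markers tested 0 passed with edgeR or DESeq2 (1 at an unadjusted p under 0.05 in edgeR), with Ppbp at -0.48 and Itga2b at -0.46 (adjusted p = 0.25 and 0.185, edgeR). Of the skin and squamous markers only Scd3 and Elovl3 were tested, at 0.84 and 0.27 (adjusted p = 0.602 and 0.89, edgeR). The part of these cells in the levels of the receptors was not tested.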

How the data were processed

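The authors aligned read pairs with STAR 2.7.9 to GRCm39, sorted with samtools 1.7 and deposited raw counts per gene from HTSeq-count 0.13.5. The submitters' processing notes also name mm10. Annotation release and strand setting are not given in the sources used here, so reads from opposite-strand neighbours cannot be told apart. HTSeq's own counters, 75.6 to 88.1% of a table, were left out. Identifiers were matched to GENCODE M39 without version (54749 of 55416).

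The names of the receptors and gene lists were chosen with earlier results of these data known. Named genes are all receptors, their 5 most correlated genes (mean of at least 50 counts, at least 10 in every library), the ligands, and, per list, genes past the threshold and the 2 with the largest difference between late and early ND. A few genes that this rule names are not reported here. Each pair of groups was fitted alone in edgeR 4.0.16 (R 4.3.3; filterByExpr, TMM, quasi-likelihood F test, Benjamini-Hochberg over all genes tested). p-values judge the difference between groups against the variation between mice. Alternatives covered scaling, filters, DESeq2 1.42.0, a joint fit, a replicate block and left-out libraries. For correlations, a prior count of 2 was used.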

Additional observations from a re-analysis of the deposited data

Results flagged for a closer look

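In 2 of the 21 sets of 5 mice (7 receptors in 3 groups), 1 mouse lay far from the other 4 by Dixon's test, which chance alone gives in about 1 of 20 sets. Early ND mouse 1 had the highest Cxcr3 level of its group, at 7.19 CPM, with the other 4 between 3.41 and 4.12 CPM. This mouse made the overlap with the late ND group, and without it the log2 fold change of late against early ND was 0.90 in place of 0.63, with an adjusted p of 0.058 (edgeR). Late ND mouse 5 had the highest S1pr5 level of its group, at 10.5 CPM, with the other 4 between 8.29 and 8.81 CPM.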

How the results depend on the processing

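The number of receptors past the threshold was 0 in each comparison with DESeq2 size factors, without hemoglobin and Rn18s-rs5 counts, without a filter, with at least 10 counts in every library (which left 18 of the 21 values), with the DESeq2 Wald test, with all 15 libraries in 1 fit, with the replicate number as a block and without the libraries poor in 18S sequence. Scaling by library totals changed it to 5 between late and early ND and 2 between late ND and untreated mice. Between late and early ND, log2 fold changes then were 1.43 for Cxcr3, 0.94 for Cxcr6, 1.49 for Ccr4 and 1.00 for S1pr4, and those of Cxcr5 (0.78), Ccr6 (0.69) and S1pr5 (0.53) turned positive. Between late ND and untreated mice Cxcr3 reached 0.95, and Cxcr5 (0.84), Cxcr6 (0.27), Ccr4 (0.80), Ccr6 (0.63), S1pr4 (0.78) and S1pr5 (0.83) turned positive. Between early ND and untreated mice Cxcr5 turned to 0.057. The T cell markers Cd3g and Themis turned to 0.28 and 0.20 between late ND and untreated mice, in settings recomputed for the named markers after seeing the data. By construction that scaling moves all genes together, to medians of 0.86, 0.91 and 0.038 in the 3 comparisons, and it called 9060, 7574 and 3 genes in all. Relative to those medians, Cxcr3 and Ccr4 were higher by 0.57 and 0.63 between late and early ND.

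Without the libraries poor in 18S sequence, S1pr4 turned to -0.084 between late and early ND, and Ccr4 and S1pr5 turned to 0.52 and 0.13 between late ND and untreated mice. Between late and early ND, Cxcr5 moved from -0.098 to -0.43 (adjusted p = 0.166, edgeR) and Ccr4 from 0.73 to 1.05 (adjusted p = 0.0815, edgeR). The cause was not tested. All genes called then numbered 4, 0 and 0, in place of 663, 406 and 0. Without a filter Ccr4 turned to 0.023 between late ND and untreated mice, and 1282, 462 and 0 genes were called. The DESeq2 Wald test called 1439, 808 and 0 genes. With each library left out in turn, 0 to 1 receptors passed between late and early ND and 0 in the other comparisons, while 145 to 1610, 0 to 593 and 0 genes passed in all. The lowest counts came without late replicate 3 (145), and, in the second comparison, 0 without untreated replicate 3, late replicate 1, late replicate 4 or late replicate 5. Log2 fold changes that changed sign or side ranged from -0.29 to 0.0027 for Cxcr5 and -0.50 to -0.25 for S1pr5 between late and early ND. Between late ND and untreated mice they ranged from -0.033 to 0.22 for Cxcr3, -0.19 to 0.19 for Ccr4 and -0.23 to 0.073 for S1pr5. Between early ND and untreated mice they ranged from -0.16 to 0.038 for Cxcr5 and -0.29 to 0.088 for Ccr6.

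Replicate numbers were not taken to pair the mice, since correlations of same-numbered deviations ran from -0.19 to 0.60 between late and early ND, -0.023 to 0.57 between late ND and untreated mice and -0.41 to 0.083 between early ND and untreated mice, and not every mouse correlated best with its own number. Between late ND and untreated mice 4 of 5 pairs were above 0.1, against 1 of 5 between late and early ND and 0 of 5 between early ND and untreated mice. With the replicate block, 673, 607 and 0 genes were called in all and no receptor.

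Depth limits Ccr4 and Cxcr3 most, with 7 to 84 and 12 to 156 counts per library, and then Cxcr6 and S1pr5, each with a median of 66.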
